A study of Rattus norvegicus with 12 samples.

Results

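The 10 genes described here encode the neurofilament subunits and the microtubule proteins of the axon and dendrite: *Nefl*, *Nefm*, *Nefh*, *Ina*, *Mapt*, *Map2*, *Map1b*, *Stmn1*, *Stmn2* and *Stmn3*. They were taken by symbol, and all 17 probe sets annotated to them, of 15923 on the array, are accounted for: 4 genes had 1 probe set, 5 had 2 and 1 had 3. Neurons were captured by laser from cryosections of untreated Fisher 344/BN F1 rats aged 6 months, and the total RNA, labelled in a two-cycle procedure, was hybridized to 12 Affymetrix RAE230A arrays. The vulnerable group (VUL) was made up of hippocampal CA1 neurons and of the cerebellar granule (CbG) cell layer, and the resistant group (RES) of hippocampal CA3 neurons and of frontal cortex neurons from layers IV to VI (CTX), with 3 biological replicates per region, 1 array each, and 6 arrays per group. No animal was exposed to oxidative stress, so the comparison asks how neurons that differ in their sensitivity to it differ at baseline. Each probe set has a linear MAS5 signal, scaled to 500 per array, and the number of arrays limits the precision. An array holds the RNA of many captured cells, so fewer cells of a type and less RNA per cell cannot be told apart.

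Neurofilaments are the intermediate filaments of neurons, long polymers that fill the axon and set its caliber. They are built from a light (*Nefl*), a medium (*Nefm*) and a heavy (*Nefh*) subunit together with α-internexin (*Ina*), and they are most abundant in large projection neurons with long or thick axons. Microtubules, the tracks of axonal transport, are bundled and stabilized by tau (*Mapt*) in axons, by *Map2* in dendrites and by *Map1b*, which is prominent in growing axons. Stathmins bind tubulin dimers and favor disassembly, *Stmn1* in the cytosol and *Stmn2* (SCG10) and *Stmn3* (SCLIP) on membranes of the growth cone and Golgi.

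Promoter sequences of 5 of the 10 genes (*Ina*, *Map2*, *Map1b*, *Stmn1* and *Stmn3*) matched the RefSeq table of the GRCr8 build. The 250 bases before the annotated start are shown for *Stmn1* and *Map2*, which differed between regions, and for *Stmn3*, a stathmin that differed less. Capitals mark matches, on either strand, to motifs that general promoter factors are known to read. The letters GGGCGG make up a GC box. The letters CCAAT make up the box named after them, and an E-box was searched as CACGTG. The TATA box was searched as TATAAA. The cAMP response element was searched as TGACGTCA, and neither it nor the TATA box had a match in these 3 windows.
Stmn1 (chr5:151964929-151965178, plus strand): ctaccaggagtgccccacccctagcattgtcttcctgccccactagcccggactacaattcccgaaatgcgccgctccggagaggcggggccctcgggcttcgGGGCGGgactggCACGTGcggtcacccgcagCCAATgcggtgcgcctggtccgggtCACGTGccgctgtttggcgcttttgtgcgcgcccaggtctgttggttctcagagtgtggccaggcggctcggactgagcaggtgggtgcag
Map2 (chr9:75346440-75346689, plus strand): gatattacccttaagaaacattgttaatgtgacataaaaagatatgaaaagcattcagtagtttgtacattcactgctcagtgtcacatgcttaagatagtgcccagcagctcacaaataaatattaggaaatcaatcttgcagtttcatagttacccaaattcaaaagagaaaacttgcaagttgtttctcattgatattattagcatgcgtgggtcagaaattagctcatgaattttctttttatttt
Stmn3 (chr3:188802495-188802744, minus strand): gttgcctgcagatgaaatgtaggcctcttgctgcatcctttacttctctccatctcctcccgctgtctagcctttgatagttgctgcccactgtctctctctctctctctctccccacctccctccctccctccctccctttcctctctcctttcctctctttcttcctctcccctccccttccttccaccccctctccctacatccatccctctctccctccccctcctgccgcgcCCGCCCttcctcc
The *Stmn1* window held 2 E-boxes, 1 GC box and 1 CCAAT box, with no overlap among them, and 67.6% of its bases were G or C. The *Stmn3* window held 1 GC box and 59.2% G or C, and the *Map2* window held 0 of these motifs and 32% G or C. Among 33469 rat promoter windows of this length, 5.59% held an E-box, 30.5% a GC box, 34% a CCAAT box, 12.9% a TATA box and 1.59% the cAMP response element, and the median share of G or C was 51.2%. These matches describe the letters of the windows, and no binding was measured here.

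Of the 12 arrays, 2 went against their labels: those given as the third replicate of CA3 and of CbG, written CA3(3) and CbG(3) from here on. The summed signal of the 7 measured granule cell markers was 29441.5 in CA3(3), near the 26022.9 and 29707.2 of CbG replicates 1 and 2, whereas it was 2248.5 in CbG(3), near the 2017.7 and 2011.5 of CA3 replicates 1 and 2. The 3 measured CA3 markers ran the other way, at 1045.3 in CA3(3) and 10891.8 in CbG(3), against 14506.8 and 14683.1 in the other CA3 arrays and 3617.5 and 1707.7 in the other CbG arrays. The comparisons were therefore fitted for the 12 arrays as labelled, for the 10 arrays without these 2, and for the 12 arrays with the 2 labels exchanged, and values for the other region pairs are over 10 arrays unless another set is named. CA1 markers summed to between 21918.5 and 26569.6 in the CA1 arrays and to at most 4990.1 elsewhere. The sum of the 3 measured markers of deep cortical layers did not set CTX apart, at 6802.9 to 8443.6 in CA1 and 5336.2 to 6508.8 in CTX. Most of that sum was *Crym*, at 5904.6 to 7737.5 in CA1 and 3714.5 to 5146.7 in CTX. *Tle4* was higher in the CTX arrays (1254.6 to 1701.9) than in any other array (at most 1124), and *Rorb* was at most 162.3 in every array. RNA integrity, read as log2 of the β-actin 3' signal over its 5' signal, lay between 3.85 and 6.52 with the highest value in CbG replicate 2. The same ratio for GAPDH lay between 1.31 and 2.76, with the highest value in CTX replicate 2 and 2.31 in CbG replicate 2.

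Neurofilament subunits were lower in VUL than in RES neurons once the 2 arrays were left out. Over the 10 arrays, both probe sets of *Nefl* and those of *Nefm* and *Nefh* fell in VUL relative to RES, by 2.00-fold to 3.23-fold, and *Stmn2* rose 2.06-fold by 1 of its 2 probe sets. *Ina*, *Mapt*, *Map2*, *Map1b*, *Stmn1* and *Stmn3* had no probe set past the threshold in this comparison. A probe set was called at a Benjamini-Hochberg adjusted p under 0.05 over all tested probe sets in limma and at least 1.5-fold. Of the 17 probe sets, 16 exceeded the array median in all 12 arrays and were tested, and the *Map1b* probe set 1371003_at did so in 3 arrays and was not. In VUL minus RES over 10 arrays, 5 of the 16 were called (1 higher, 4 lower), which is 31.2%, against 17.8% of all 7463 tested probe sets, and their median difference was -0.12, against 0.04 over all. With the 2 labels exchanged, 6 were called (2 higher, 4 lower), against 18.5% of all. As labelled, 0 of 16 were called, as were 0% of all 7535 tested probe sets, the smallest adjusted p over all being 0.0654, with 743 probe sets at an unadjusted p under 0.05. With no filter on low signals over 10 arrays, only the calls of *Nefl* remained in VUL minus RES, and those of *Nefm* (adjusted p = 0.0666), *Nefh* (0.156) and *Stmn2* (0.0576) were lost.

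*Nefl*, the light subunit on which the other subunits assemble, had the widest range of the 10 genes. With probe set 1370058_at the signal was 2066.7, 1729.3 and 2150.2 in CA1 replicates 1, 2 and 3, against 4661.3 and 5175.6 in CA3 replicates 1 and 2. It was 454.5 and 452.5 in CbG replicates 1 and 2, against 2226.9, 2758.7 and 1362.6 in the 3 CTX arrays. In CA3(3) it was 292.7, the lowest of all, and in CbG(3) it was 4602.4. Neither pair of regions overlapped among the 10 arrays, every CA1 value lying below both CA3 values and both CbG values below every CTX value. The share of all tested probe sets without such overlap was not counted. Lack of overlap, here and for the genes below, is therefore a description only. The VUL minus RES difference was -1.69 on the log2 scale (SE 0.20, adjusted p = 0.000129, lower in 4 of 4 pairs of arrays with the same replicate number) over 10 arrays. It was -1.74 (SE 0.17, 1.01e-05, 6 of 6 pairs) with the labels exchanged, and -0.42 (SE 0.87, 0.934, 4 of 6 pairs) as labelled. The original study also measured *Nefl* by quantitative PCR on the same RNA, in other exons than this probe set. It reported a level only slightly lower in VUL than in RES by that method, a smaller difference than on its arrays.

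The other *Nefl* probe set, 1370059_at, followed the same regional pattern. It read 1862.2, 1574.1 and 1874 in the CA1 arrays, against 4476.3 and 5024.8 in CA3 replicates 1 and 2, and 749.6 and 557.4 in CbG replicates 1 and 2, against 1967.5, 1341.2 and 1450.7 in the CTX arrays. CA3(3) read 519.8 and CbG(3) read 3386.3. VUL minus RES was -1.31 (SE 0.16, adjusted p = 0.000192) over 10 arrays, -1.23 (SE 0.15, 5.87e-05) with labels exchanged and -0.34 (SE 0.67, 0.93) as labelled. Over the 12 arrays, where no label enters, the log2 signals of the 2 probe sets had r = 0.955, a description across arrays that share regions.

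*Nefm*, the medium subunit, was low in CA1 and CbG and variable in CTX. Its signal was 1531.6, 1714.5 and 1628.2 in the CA1 arrays, against 4605 and 6046 in CA3 replicates 1 and 2, and 1512.3 and 1685.5 in CbG replicates 1 and 2, against 2009, 4669.4 and 1942.9 in the CTX arrays. CA3(3) read 1264.9 and CbG(3) read 4168.8. CTX replicate 2 thus stood 2.36 times above the mean of the other CTX arrays, yet the CbG and CTX values still did not overlap. VUL minus RES was -1.17 (SE 0.20, adjusted p = 0.00149, 4 of 4 pairs) over 10 arrays, -1.12 (SE 0.17, 0.000313, 6 of 6 pairs) with labels exchanged and -0.56 (SE 0.45, 0.785) as labelled.

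*Nefh*, the heavy subunit whose long tails are heavily phosphorylated in mature axons, read 3038, 3926.3 and 2848.7 in the CA1 arrays, against 5485.3 and 4844.2 in CA3 replicates 1 and 2. It read 1532.6 and 748.6 in CbG replicates 1 and 2, against 2136.3, 4766.7 and 2290.1 in the CTX arrays, and 673.6 and 4874.4 in CA3(3) and CbG(3). Neither regional pair overlapped among the 10 arrays, and CTX replicate 2 was again high, at 2.15 times the mean of the other CTX arrays. VUL minus RES was -0.997 (SE 0.24, adjusted p = 0.0117, 4 of 4 pairs) over 10 arrays, -1.05 (SE 0.21, 0.002, 6 of 6 pairs) with labels exchanged and -0.11 (SE 0.64, 0.977) as labelled. Without CbG replicate 2 the difference over the remaining arrays was -0.66 (adjusted p = 0.0521), and without CA3 replicate 1 it was -0.92 (0.05, not past the threshold).

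**Figure D1:**
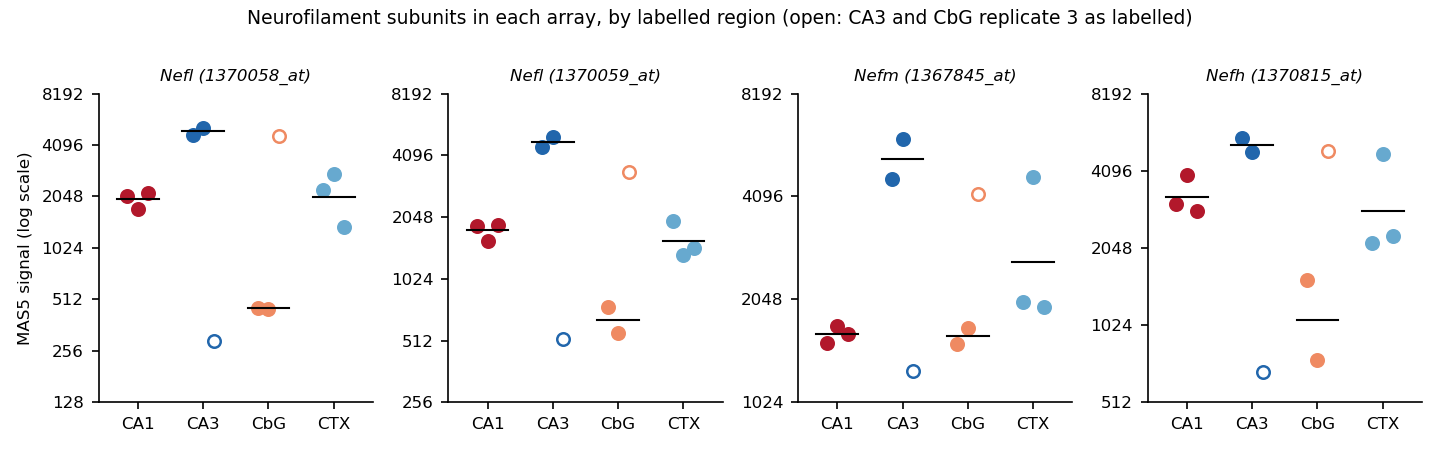
MAS5 signal (log scale) of the *Nefl*, *Nefm* and *Nefh* probe sets in each array by labelled region, with replicates 1 to 3 from left to right in a region. Filled circles are arrays, open circles CA3(3) and CbG(3), and lines the geometric means of the filled circles. In the first panel the open circle of CA3 lies at 292.7 and that of CbG at 4602.4, each near the filled circles of the other region.

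The hippocampal pair was compared by itself. In CA1 minus CA3 over 10 arrays, 3 of 16 probe sets were called, all lower in CA1, against 10.5% of all tested: *Nefl* 1370058_at by 2.38-fold (-1.25, SE 0.30, adjusted p = 0.0192), *Nefl* 1370059_at by 2.77-fold (-1.47, SE 0.24, 0.00244) and *Nefm* by 3.12-fold (-1.64, SE 0.30, 0.00435). *Nefh* was -0.59 (SE 0.36, 0.344). The same 3 were called with labels exchanged, when 13.5% of all were, at -1.29, -1.27 and -1.60. As labelled, 0 of 16 were called against 1.30% of all, and *Nefl* 1370058_at read 0.02 (SE 1.24, adjusted p = 0.994), with the opposite sign. The call of this probe set was lost without CA1 replicate 1 or 2 or CA3 replicate 1 or 2 and without replicate 2 of every region, the difference then lying between -1.34 and -0.88 (adjusted p 0.0539 to 0.185). That of 1370059_at was lost without CA3 replicate 2 (-1.17, adjusted p = 0.0772), and with no filter on low signals all 3 calls were lost (adjusted p = 0.215 and 0.0926 for *Nefl* and 0.128 for *Nefm*).

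Between the granule cell layer and cortex more of the members were called, as were more of all tested probe sets. In CbG minus CTX over 10 arrays, 6 of 16 probe sets were called (2 higher, 4 lower), against 26.3% of all. *Nefl* fell 4.39-fold by 1370058_at (-2.14, SE 0.30, adjusted p = 0.000293) and 2.20-fold by 1370059_at (-1.14, SE 0.24, 0.00496), and *Nefh* fell 2.64-fold (-1.40, SE 0.36, 0.0141). *Map2* 1368411_a_at was -0.97 (SE 0.33) with an adjusted p that rounds to 0.05 and lies just under the threshold. *Stmn2* rose 2.25-fold by 1370041_at (1.17, SE 0.23, 0.00322) and 3.91-fold by 1370042_at (1.97, SE 0.26, 2e-04). *Nefm* was -0.69 (SE 0.30, 0.107), and it was called with labels exchanged (-0.65, SE 0.24, 0.0468), which gave 7 called of 16 (2 higher, 5 lower) against 34.0% of all. As labelled, 0 of 16 were called against 0.624% of all. The *Nefh* call was lost without CbG replicate 2 (-0.72, adjusted p = 0.206), without CTX replicate 2 (-0.86, 0.116) and without replicate 2 of every region (-0.44, 0.386). With no filter on low signals, *Nefl* 1370058_at and *Stmn2* 1370042_at remained called, and *Nefl* 1370059_at (adjusted p = 0.0776), *Nefh* (0.16), *Map2* 1368411_a_at (0.256) and *Stmn2* 1370041_at (0.061) did not.

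**Figure D2:**
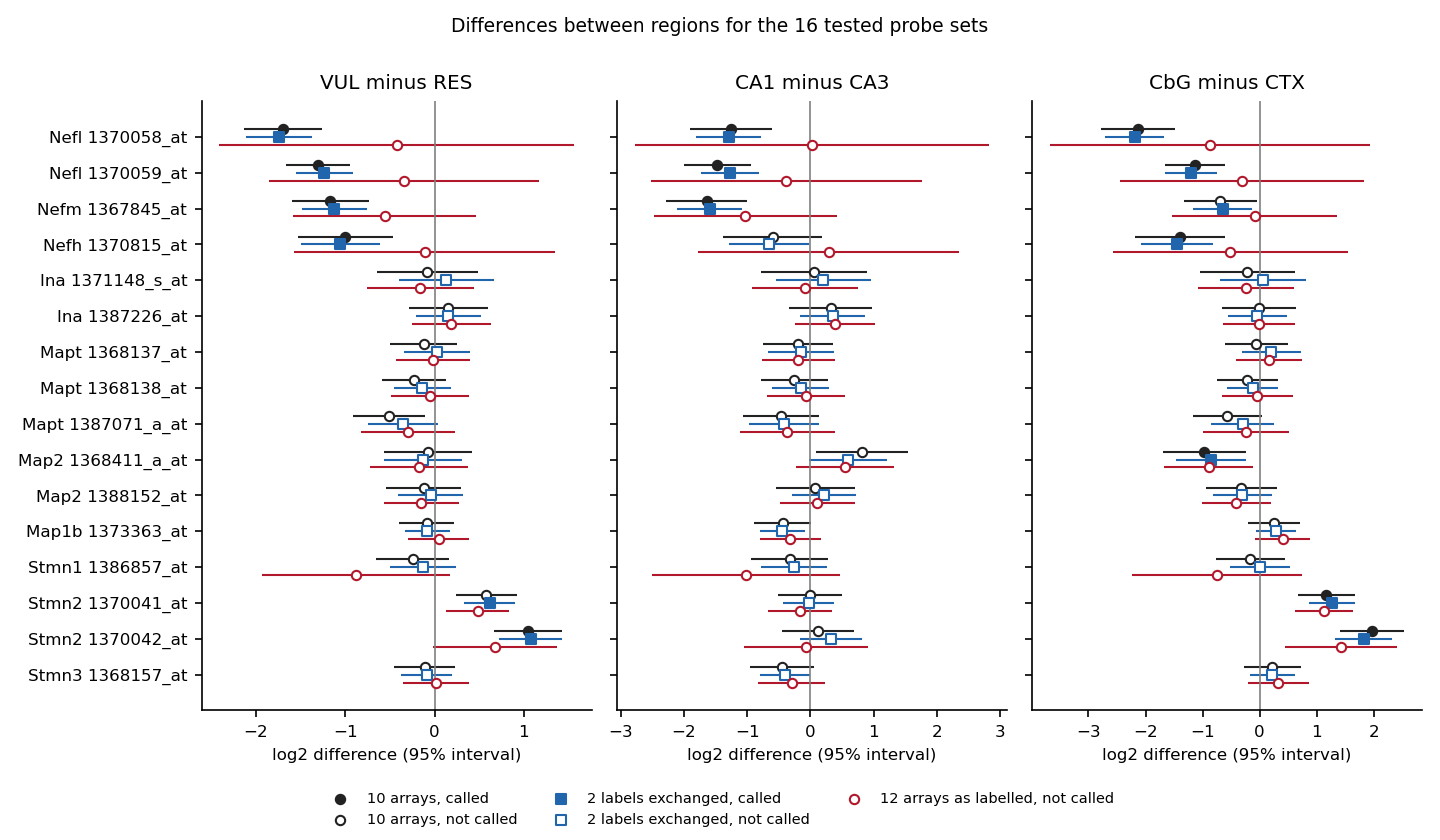
Log2 difference with its 95% interval from limma for the 16 tested probe sets in VUL minus RES, CA1 minus CA3 and CbG minus CTX, for the 10 arrays, the 12 arrays with 2 labels exchanged and the 12 arrays as labelled. Filled symbols are called, and the 4 neurofilament probe sets lie left of 0 in VUL minus RES for the 10 arrays, from -1.69 to -0.997, while the intervals as labelled are wide.

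Ordered by region on the median-centred scale over the 10 arrays, *Nefl* and *Nefh* ran CA3, CA1, CTX, CbG from high to low, and *Nefm* ran CA3, CTX, CA1, CbG. On the signal scale the mean of *Nefl* 1370058_at was 1982.1 ± 222.8 in CA1 and 2116.1 ± 704.6 in CTX (SD, n = 3 each), the other way round and within the spread. CA3 stood above CTX by 1.53 and 1.97 for the *Nefl* probe sets (adjusted p = 0.00331 and 0.000232), 1.27 for *Nefm* (0.00811) and 1.096 for *Nefh* (0.0355), and above CbG by 3.67, 3.10, 1.95 and 2.50 (adjusted p = 0.000382 or less). With labels exchanged these values were 1.57, 1.77, 1.22 and 1.15 against CTX and 3.76, 2.96, 1.87 and 2.61 against CbG, all called. The *Nefh* call in CA3 minus CTX was lost in 8 of the 13 fits that left out 1 array or 1 replicate number (0.59 to 1.66, and 0.67 without CTX replicate 1), that of *Nefm* in 3 (without CA3 replicate 1 or 2 or CTX replicate 1) and that of *Nefl* 1370058_at in 1 (without CA3 replicate 2, 1.45, adjusted p = 0.0506). CA1 stood above CbG by 2.41, 1.63 and 1.90 for the *Nefl* probe sets and *Nefh* (0.00132 or less), but not past the threshold for *Nefm* (0.31, 95% interval -0.33 to 0.96). The neighbors CA1 and CTX were not separated by any of the 4 probe sets: the differences were 0.28 (interval -0.27 to 0.83), 0.49 (0.05 to 0.94), -0.38 (-0.93 to 0.17) and 0.50 (-0.17 to 1.17), with adjusted p between 0.0762 and 0.397. As labelled, 0 of these 4 probe sets was called in any region pair.

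Centring on the array median bears on the pairs that involve CTX, whose arrays had medians of 187 to 199.3, against 145.5 to 187.5 in all others. Over all tested probe sets the median of CA3 minus CTX was 0.36 with centring and -0.02 without it over 10 arrays, and CbG minus CTX was 0.12 and -0.02. The share of higher calls among all calls in CbG minus CTX was 53.7% with centring, 44% after quantile normalization and 39.9% with no centring, and in CA3 minus CTX it was 79.4%, 48.4% and 40.4%. Without centring, *Nefl* (1.16 and 1.60) and *Nefm* (0.90) were still called in CA3 minus CTX, and *Nefh* (0.73, adjusted p = 0.211) was not. After quantile normalization *Nefl* alone of the 3 was called there, with *Nefm* at 0.79 (adjusted p = 0.0726) and *Nefh* at 0.63 (0.281). In VUL minus RES and CA1 minus CA3 the counts of called members were the same under all 3 scalings, and in CbG minus CTX quantile normalization called 1 more, *Nefm*.

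Stathmin-like proteins split by gene. *Stmn2*, which is enriched in growth cones and supports axon maintenance, was highest in the granule cell layer over 10 arrays. With 1370042_at the signal was 1222.9, 1087.3 and 740.7 in the CA1 arrays, against 851.3 and 991.9 in CA3 replicates 1 and 2, values that overlap. It was 2293.6 and 2025.2 in CbG replicates 1 and 2, against 649.5, 456.8 and 674.1 in the CTX arrays, which do not. CA3(3) read 1295.6 and CbG(3) read 579.3. VUL minus RES was 1.04 (SE 0.18, adjusted p = 0.00139, higher in 3 of 4 pairs) over 10 arrays, 1.08 (SE 0.16, 0.00033, 5 of 6 pairs) with labels exchanged and 0.68 (SE 0.31, 0.515, 4 of 6 pairs) as labelled.

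The more abundant signal of *Stmn2*, 1370041_at, was 8205.9, 8810.7 and 8837.1 in the CA1 arrays, against 7948.3 and 9329.4 in CA3 replicates 1 and 2, and 13005.2 and 10176.6 in CbG replicates 1 and 2, against 5896.2, 5859 and 4749.6 in the CTX arrays. CA3(3) read 11640 and CbG(3) read 8959.6. Its VUL minus RES difference of 0.58 (SE 0.16, adjusted p = 0.0182) over 10 arrays was 1.496-fold and so just short of the fold threshold, and with labels exchanged it was called (0.62, SE 0.13, 0.00353). As labelled it was 0.48 (SE 0.16, 0.311). CA1 minus CA3 was -0.01 (95% interval -0.51 to 0.50) for this probe set and 0.12 (-0.45 to 0.69) for the other over 10 arrays. The difference between the 2 regional differences, CA1 minus CA3 less CbG minus CTX, was itself called for both *Stmn2* probe sets over 10 arrays, at -1.18 (SE 0.34, adjusted p = 0.0368) and -1.85 (SE 0.38, 0.00638).

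That difference of differences was called for 3 of 16 member probe sets over 10 arrays, against 14.9% of all, and for 4 of 16 with labels exchanged, against 24.0%. As labelled it was called for 0 of 16, against 2.07%. The third was *Map2* 1368411_a_at (1.79, SE 0.49, adjusted p = 0.0295), and with labels exchanged *Map1b* 1373363_at was added (-0.73, SE 0.23, 0.0371). No neurofilament probe set was called in it, with values between -0.95 and 0.88 over 10 arrays and adjusted p of at least 0.167, so a difference between the 2 regional pairs was not shown for them. The *Stmn2* 1370041_at call was lost in 9 of the 13 fits that left out 1 array or 1 replicate number (-1.36 to -1), that of *Map2* in 4 (1.42 to 2.16) and that of *Stmn2* 1370042_at in 1 (without replicate 2 of every region, -1.37, adjusted p = 0.0559). The *Stmn2* 1370041_at call was also lost after quantile normalization (-0.81, adjusted p = 0.148) and with no centring (-0.99, 0.0604), and with no filter on low signals all 3 were lost (0.111 to 0.235).

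*Stmn1*, the cytosolic stathmin (oncoprotein 18), did not separate VUL from RES but separated both hippocampal regions from the other 2. It was named after its values had been seen. Its signal was 1796.7, 1382.7 and 1590.7 in the CA1 arrays and 1963.8 and 1978 in CA3 replicates 1 and 2, but 5349.3 and 8674.3 in CbG replicates 1 and 2 and 8083.2, 9327 and 7229.9 in the CTX arrays. CA3(3) read 8118.2 and CbG(3) read 1717.9, each on the side of the other region. Over 10 arrays CA1 was below CTX by 4.14-fold (-2.05, SE 0.24, adjusted p = 8.66e-05) and below CbG by 3.70-fold (-1.89, SE 0.28, 0.000218), and CA3 was below CTX by 3.30-fold (-1.72, SE 0.28, 0.00122) and below CbG by 2.95-fold (-1.56, SE 0.29, 0.00115). The values with labels exchanged were -2.05, -2.06, -1.79 and -1.80, all called, and as labelled they were -2.05, -1.30, -1.03 and -0.28, none called. With no filter on low signals the CA3 minus CTX call was lost (adjusted p = 0.057) and the other 3 remained. VUL minus RES was -0.24 (SE 0.19, adjusted p = 0.372) over 10 arrays.

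**Figure D3:**
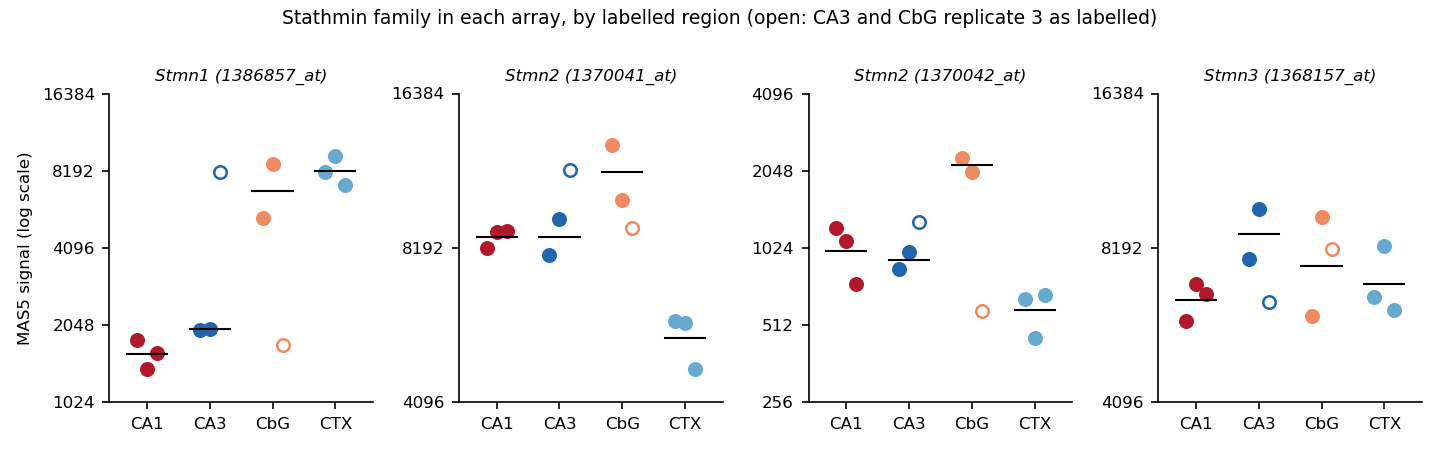
MAS5 signal (log scale) of *Stmn1*, *Stmn2* and *Stmn3* in each array by labelled region, drawn like the neurofilament plot. For *Stmn1* the filled circles of CA1 and CA3 lie between 1382.7 and 1978 and those of CbG and CTX between 5349.3 and 9327, and the open circles lie at 8118.2 in CA3 and 1717.9 in CbG.

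In the remaining 4 region pairs, members called over 10 arrays numbered 3 of 16 in CA1 minus CTX (34.7% of all), 11 of 16 in CA3 minus CTX (34.2%), 5 of 16 in CA1 minus CbG (39.3%) and 9 of 16 in CA3 minus CbG (43.1%). With labels exchanged the counts were 3, 11, 5 and 8 (34.1%, 36.3%, 40.6% and 45.5% of all). As labelled they were 1, 1, 0 and 0 (6.61%, 1.94%, 1.25% and 0% of all), the 1 being *Stmn2* 1370041_at, higher in CA1 and in CA3 than in CTX. Of the 11 in CA3 minus CTX, 9 were higher in CA3 and 2 lower (*Map2* 1368411_a_at and *Stmn1*), and 5 remained called without centring. The 6 that did not were *Nefh*, *Mapt* 1368137_at, *Map1b* 1373363_at, both *Stmn2* probe sets and *Stmn3*. Quantile normalization left 4 of the 11 called (both *Nefl* probe sets, *Map2* 1368411_a_at and *Stmn1*), and with no filter on low signals 1 was left (*Nefl* 1370059_at). In the 13 fits that left out 1 array or 1 replicate number, *Mapt* 1368137_at and *Stmn3* lost the call in 11 each and *Nefh* and *Map1b* in 8 each.

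*Map2* encodes the dendritic microtubule-associated protein, and its 2 probe sets did not behave alike. With 1368411_a_at the signal was 814.8, 423.7 and 276.8 in the CA1 arrays, against 413.8 and 172.3 in CA3 replicates 1 and 2, and 493.6 and 374.6 in CbG replicates 1 and 2, against 1025.1, 580.4 and 1113.1 in the CTX arrays. CA3(3) read 414.1 and CbG(3) read 387. CTX was thus the highest region, and CA1 varied widely between replicates. CbG minus CTX was -0.97 over 10 arrays, -0.85 (SE 0.29, adjusted p = 0.0322) with labels exchanged and -0.90 (SE 0.34, 0.265) as labelled, and the call over 10 arrays was lost in 11 of the 13 fits that left out 1 array or 1 replicate number (-1.38 to -0.60). CA3 minus CTX was -1.43 (SE 0.33, adjusted p = 0.00815) over 10 arrays and -1.20 (SE 0.29, 0.00577) with labels exchanged. The probe set 1388152_at had no call in any comparison, with signals from 2444.2 to 5982.1, and VUL minus RES was -0.12 (SE 0.19, adjusted p = 0.694).

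The other members varied less across regions. *Mapt* (tau) had 3 probe sets with signals from 1637.8 to 3399.3, from 1042.6 to 1958.1 and from 1989.1 to 5254.3, and its 9 differences in VUL minus RES, CA1 minus CA3 and CbG minus CTX lay between -0.56 and -0.06 over 10 arrays (smallest adjusted p = 0.0641). All 3 were higher in CA3 than in CbG (0.79, 0.83 and 1.104, adjusted p = 0.0309, 0.0198 and 0.00877), where CbG replicate 2 was the lowest array of each. Without that array the differences were 0.35, 0.70 and 0.65, none called, with labels exchanged 1368137_at was not called (0.48, adjusted p = 0.116), and after quantile normalization or with no filter none was. *Ina*, the fourth filament subunit, did not follow the other 3: its 6 differences lay between -0.22 and 0.32 (smallest adjusted p = 0.56), with signals from 545.2 to 1629.2 and from 2136.2 to 4626.6. CTX replicate 2 was the highest array for both *Ina* probe sets, at 1.71 and 1.74 times the mean of the other CTX arrays, as it was among the CTX arrays for *Nefm*, *Nefh* and *Nefl* 1370058_at (1.54), whereas *Nefl* 1370059_at was the lowest CTX value there (0.785).

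*Map1b* varied little: 1373363_at ran from 9592.7 to 15221 and was 0.69 higher in CA3 than in CTX (SE 0.21, adjusted p = 0.0257), a call that is lost without centring (0.31, 0.237). The untested probe set 1371003_at ran from 90.2 to 247.2, around the array medians of 145.5 to 199.3. *Stmn3* read 5907.2 to 9754.9 and was -0.11 (SE 0.16, adjusted p = 0.658) in VUL minus RES. Across the 12 arrays *Map1b* 1373363_at and *Stmn3* had r = 0.922, the highest r between 2 member genes outside the neurofilament trio, in which *Nefl* 1370058_at had r = 0.943 with *Nefh* and 0.804 with *Nefm*. *Nefl* 1370058_at and *Ina* had r = 0.005 and 0.223.

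**Figure D4:**
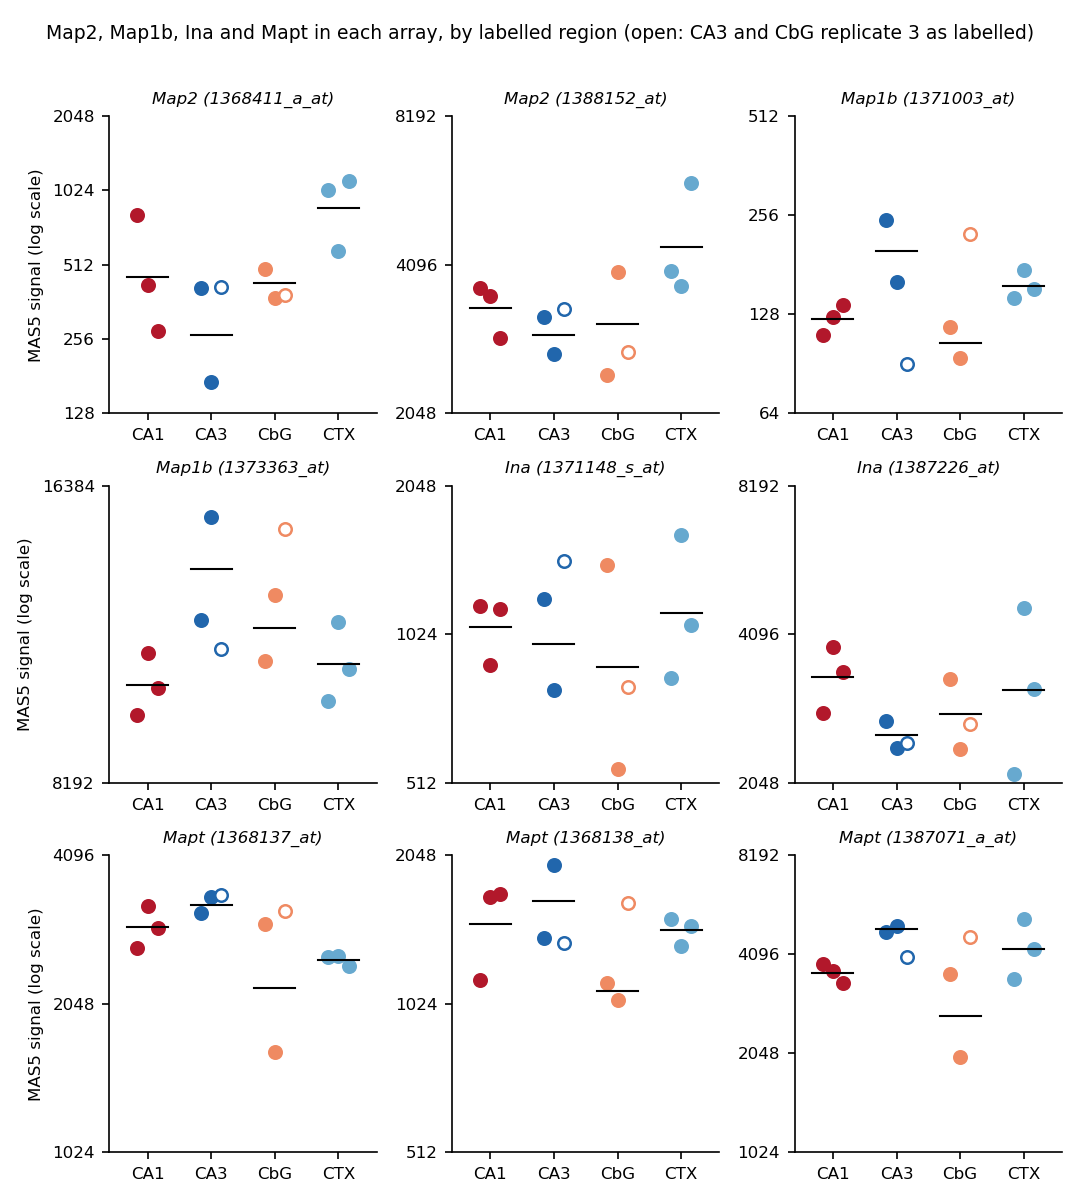
MAS5 signal (log scale) of the probe sets of *Map2*, *Map1b*, *Ina* and *Mapt* in each array by labelled region, drawn like the neurofilament plot. *Map2* 1368411_a_at is highest in CTX (580.4 to 1113.1), and CTX replicate 2 is the highest array for both *Ina* probe sets (1629.2 and 4626.6).

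Markers of other cells also differed between regions, and not all of them along the split of VUL and RES. Oligodendrocyte markers summed to between 4272.8 and 17323.4 in VUL and between 10064.8 and 44249.4 in RES arrays over 10 arrays, with the highest sums in CTX and the lowest in CA1, and all 5 of the 5 tested were lower in VUL. *Mog* read 144.6, 85.8 and 74.2 in CA1, below the array medians there, whereas *Mbp* read 2126 to 2950.9. Purkinje cell markers, of a cell that borders the granule layer, summed to 14905.8 and 35208.7 in CbG replicates 1 and 2, against 3719.4 to 5325.6 in CTX. They summed to 7800.5 to 8256.6 in CA1 and to 3764.8 and 3679.1 in CA3 replicates 1 and 2. Most of the CA1 sum was *Itpr1* (6985.6 to 7116.3), and *Calb1* was also higher in CA1 (544.1 to 1102.9, against 297.2 and 90.4). The other 2 measured markers were not: *Pcp2* read 51.9 to 85.3 in CA1, against 85.2 and 79.1, and *Car8* 30.1 to 76.2, against 72.4 and 193.5. CA3(3), which carried granule cell markers, had a sum of 2601.2, and CbG(3) had 4044.2. Interneuron markers summed to between 14877.9 and 17469.3 in CA1, against 6396.5 and 6764.6 in CA3 replicates 1 and 2, and to 6146.2 and 10362.7 in CbG replicates 1 and 2, against 16826.7 to 21933.5 in CTX. The list did not move as one, with 1 of 6 tested higher and 3 lower in CbG minus CTX. *Cck* read 83.7 and 59.2 in CbG replicates 1 and 2, against 4683.5 to 7171.2 in CTX, whereas *Pvalb* read 883.6 and 2046.8, against 238.6 to 497.2. Microglial and endothelial markers were highest in CTX, at 2945.3 to 7226.3 and 1565.4 to 2406, against at most 2142.5 and 1219 in the other regions over 10 arrays, and 2 of 6 tested astrocyte markers were higher in VUL. Forebrain pyramidal markers summed to 1007.3 and 903.3 in CbG replicates 1 and 2, against 6934 to 10920.4 in CTX. In CTX replicate 2 the oligodendrocyte sum was 41961.2 and the interneuron sum 21933.5, against 28971.3 and 44249.4, and 20070 and 16826.7, in CTX replicates 1 and 3. The part of these cells and of RNA integrity in the differences was not tested.

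Genes whose pattern over the 12 arrays was most like that of *Nefl* 1370058_at, among 6321 tested probe sets with 1 symbol, were *Bcat1* (r = 0.982), *Astn1* (0.978), *Tubb4b* (0.976), *Fbxo3* (0.971) and *Kif3c* (0.969). *Bcat1* encodes a cytosolic branched-chain aminotransferase, *Astn1* a neuronal adhesion protein, *Tubb4b* a β-tubulin and *Kif3c* a kinesin. *Bcat1*, for instance, read 6995.7, 7083.3 and 8105.5 in CA1, 8748.2 and 11996.8 in CA3 replicates 1 and 2, 3284.1 and 2960.4 in CbG replicates 1 and 2 and 7883.2, 8417.3 and 6207.3 in CTX. For *Stmn2* 1370041_at they were *Tesc* (r = 0.962), *G3bp1* (0.961), *Sh3bp5* (0.957), *Hltf* (0.956) and *Zfand6* (0.953). *Tesc*, a calcium-binding protein, read 4075.4 and 4874.6 in CbG replicates 1 and 2, against 1206.7, 1373.5 and 852.5 in CTX.

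Other genes of the neuronal cytoskeleton were counted in 8 lists of 139 genes, of which 110 were on the array and 88 were tested, each by its probe set of highest mean signal. Over 10 arrays, 20 of 88 were called in VUL minus RES (8 higher, 12 lower, 22.7% against 17.8% of all), 7 in CA1 minus CA3 (7.95% against 10.5%) and 32 in CbG minus CTX (36.4% against 26.3%). With labels exchanged the VUL minus RES counts were 8 higher and 11 lower, and as labelled they were 0 and 0, so the directions below hold for the 10 arrays. With labels exchanged, the genes named below kept their VUL minus RES call and direction except *Kif2a*. Over 10 arrays, only *Tubb2b*, *Kif5a*, *Map4* and *Dpysl5* of them were also called in CA1 minus CA3. All but *Lmnb1* and *Dpysl5* were called in CbG minus CTX.

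Tubulins, the subunits of microtubules, had 3 of 12 tested genes lower in VUL and 0 higher (median -0.33), against 17.8% called of all tested probe sets. The same share is the background for the counts of the other lists, and no list was tested as a set. *Tubb2b* was 2.66-fold lower (-1.41, SE 0.18, adjusted p = 0.000216), *Tubb3*, the neuronal β-tubulin, 1.81-fold lower (-0.85, SE 0.16, 0.00224) and *Tubb4b* 1.63-fold lower (-0.70, SE 0.16, 0.00675). *Tubb2b* read 1142, 832.2 and 839.1 in CA1, against 2498.3 and 2391.7 in CA3 replicates 1 and 2, and 548.8 and 653.6 in CbG replicates 1 and 2, against 2184.1, 1284.5 and 1771 in CTX, with no overlap in either pair. Of 20 tested genes listed with the axonal transport motors (kinesins, dyneins and their partners), 3 were lower and 1 higher (median -0.21), near the share of all. *Kif5a*, a neuronal kinesin heavy chain known for carrying neurofilaments along axons, was 1.75-fold lower (-0.81, SE 0.15, 0.00211) and was lower in both pairs (-0.75 in CA1 minus CA3 and -0.86 in CbG minus CTX, adjusted p = 0.0459 and 0.0127). *Kif2a* was 2.00-fold lower (-0.997, SE 0.21, 0.00497) but not past the threshold with labels exchanged (-0.66, 0.071), and the dynein light chain *Dynlt1* was 1.75-fold higher (0.81, SE 0.18, 0.00831). *Kif2a* read 151.4 and 62.8 in CbG replicates 1 and 2, below the medians of those arrays, 187.5 and 167.

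Growth cone and axon proteins had 2 of 15 higher and 5 lower in VUL (median -0.23). *Basp1*, a membrane protein of growth cones, read 1533.7, 1773.5 and 1273.8 in CA1 and 1542.5 and 1349.8 in CA3 replicates 1 and 2, but 42.8 and 214.8 in CbG replicates 1 and 2, against 1628.3, 1621 and 1738.8 in CTX (VUL minus RES -1.98, SE 0.31, adjusted p = 0.000932). The 42.8 lies far below the median of its array, 187.5, so the size of the *Basp1* difference has no firm value. *Uchl1*, an abundant neuronal deubiquitinase, was 3.13-fold lower in VUL (-1.64, SE 0.18, 6.73e-05), with 500.6 and 410.9 in CbG replicates 1 and 2, against 2838.4 to 4332.4 in CTX. The *Uchl1* difference was -2.82 in CbG minus CTX and -0.46 in CA1 minus CA3 (adjusted p = 0.306). *Dpysl5*, a collapsin response mediator, was called higher in VUL (adjusted p = 3.46e-05), but the differences of its 2 regional pairs had opposite signs, and only that of CA1 minus CA3 was called. It read 438.3, 593.6 and 585.1 in CA1, against 17.5 and 6.4 in CA3 replicates 1 and 2, signals far below the array medians, so the size of that difference has no firm value. It read 233.6 and 256.3 in CbG replicates 1 and 2, against 522.1, 375.6 and 391.3 in CTX (CbG minus CTX -0.65, SE 0.35, adjusted p = 0.192).

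Among other microtubule-associated proteins 1 of 15 was higher and 0 lower (median -0.29): *Map4*, a widely expressed stabilizer of microtubules, was 2.23-fold higher (1.16, SE 0.17, adjusted p = 0.000488). It was higher in both pairs, with 7134, 8564.2 and 7695.3 in CA1, against 3609.1 and 3419.8 in CA3 replicates 1 and 2, and 2153.8 and 3464.6 in CbG replicates 1 and 2, against 1245.5, 1157.7 and 1521.2 in CTX. Of 3 tested other intermediate filaments 2 were higher, the astrocyte filament *Gfap* (0.72, SE 0.19, 0.0176) and the nuclear lamin *Lmnb1* (0.70, SE 0.19, 0.0179). Of 11 scaffold genes 2 were higher, near the share of all. The erythroid and neuronal β-spectrin *Sptb* (0.68, SE 0.21, 0.0357) was 2.21 in CbG minus CTX (adjusted p = 0.000327) and -0.86 in CA1 minus CA3 (0.108). The spectraplakin *Macf1* (0.60, SE 0.16, 0.0183) was 1.22 in CbG minus CTX and -0.03 in CA1 minus CA3 (0.959). Of 11 kinases and phosphatases that act on tau and neurofilaments 1 was lower, *Ppp2r2b*, a neuronal regulatory subunit of protein phosphatase 2A (-1.49, SE 0.17, 8.82e-05). The *Ppp2r2b* difference was -2.38 in CbG minus CTX and -0.59 in CA1 minus CA3 (adjusted p = 0.157). The 1 tested severing gene was not called.

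**Figure D5:**
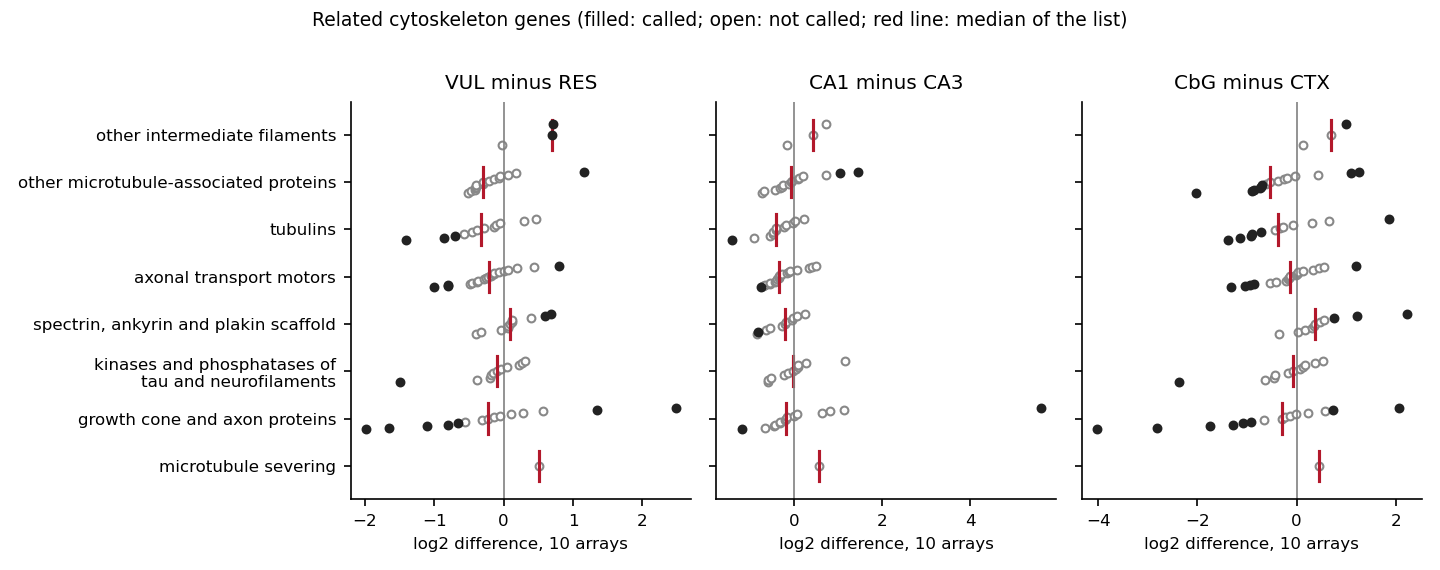
Log2 difference over the 10 arrays for each tested gene of the 8 related lists, in VUL minus RES, CA1 minus CA3 and CbG minus CTX. Filled circles are called genes, open circles are not, and red lines are list medians, -0.33 for tubulins and -0.23 for growth cone and axon proteins in VUL minus RES.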

How the data were processed

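The deposited values are MAS5 signal intensities of RAE230A arrays, which the authors made in GeneChip Operating Software and scaled to a target of 500, with 1 column per array and 0 columns left without a sample. Probe set intensities were log2-transformed and centred on each array's median over the 15866 probe sets that are not controls. Those above that median in at least 8 of 12 arrays (7535), or the same share of 10 arrays (7463), entered a linear model (limma 3.58.1, R 4.3.3) with 1 mean per region and the replicate number as a block, since the methods used paired t-tests. That a number marks 1 animal is assumed, as the sources used here do not state it. The pairing was checked by the deviations of arrays from their region means: their mean correlation was -0.0613 for the same replicate number and 0.0202 for other numbers as labelled, and 0.0856 and -0.0424 with 2 labels exchanged. Genes came from the platform table, which gave 12789 probe sets 1 symbol and 312 several. Members and lists were chosen with earlier results of these data known. Named in full were members called in VUL minus RES, CA1 minus CA3 or CbG minus CTX, with *Stmn1* added after its values had been seen, then the 5 genes most like *Nefl* and *Stmn2* and up to 3 called genes per related list. The fit of VUL minus RES for the 12 arrays as labelled was tested on simulated data with known differences, and the other fits were not. Alternatives covered scaling, low signals, filters, priors, the methods' t-test, the block and each array and replicate number. Figures were drawn in matplotlib 3.10.9. The p-values measure the spread between 3 replicates per region, or 2 for CA3 and CbG over 10 arrays.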

Additional observations from a re-analysis of the deposited data

Results flagged for a closer look

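The CA1 minus CA3 and CbG minus CTX differences themselves differed for 3 probe sets over 10 arrays: *Map2* 1368411_a_at (1.79), *Stmn2* 1370041_at (-1.18) and *Stmn2* 1370042_at (-1.85 on the log2 scale). In the 34 groups of 6 arrays as labelled (17 probe sets in VUL and in RES), 5 had an extreme array whose gap to the next one, divided by the range of the group, exceeded Dixon's critical value of 0.625. They were the array labelled as the third CbG replicate, high for *Nefm* (0.727), CbG replicate 2, low for *Mapt* 1368137_at (0.663), CA3 replicate 2, high for *Mapt* 1368138_at (0.666), CA1 replicate 1, high for *Map2* 1368411_a_at (0.664), and CTX replicate 3, high for *Map2* 1388152_at (0.751). Chance gives about 1 in 20 groups, and each of these groups spans 2 regions.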

How the results depend on the processing

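As labelled, the counts of member probe sets called were 0 in both directions of all 3 comparisons. They became 2 higher and 4 lower in VUL minus RES, 3 lower in CA1 minus CA3 and 2 higher and 5 lower in CbG minus CTX with the labels exchanged, and 1 and 4, 3, and 2 and 4 over 10 arrays. With no replicate block 1 was higher in CbG than in CTX as labelled. Leaving out 1 array or replicate number gave 0 to 1 higher and 0 to 4 lower in VUL, 0 to 1 higher and 0 to 3 lower in CA1, and 0 to 2 higher and 0 to 3 lower in CbG as labelled, and 1 to 2 and 3 to 5, 0 to 1 and 1 to 3, and 2 to 2 and 2 to 5 over 10 arrays. Over 10 arrays with no filter on low signals, which adds dim probe sets to the fit, 0 were higher and 2 lower in VUL (both *Nefl*, adjusted p = 0.0307 and 0.0282), 0 lower in CA1, and 1 higher and 1 lower in CbG. The methods' t-test on 4 pairs called 0 higher and 3 lower in VUL unadjusted (600 of all probe sets) and 0 and 0 after Benjamini-Hochberg (0 of all). On 6 pairs as labelled it called 196 and 0 of all. Without the replicate block over 10 arrays, the calls of *Map2* 1368411_a_at in CbG minus CTX (-0.89, adjusted p = 0.122) and in the difference between the pairs (1.62, 0.0677) and of *Stmn3* in CA3 minus CTX (0.69, 0.0567) were lost, and the replicate block changed no other call of a member over 10 arrays.
As labelled, *Nefl* 1370058_at in CA1 minus CA3 changed sign with the labels exchanged (-1.29), over 10 arrays (-1.25) and with 50 added to each signal (-0.021), and in CA3 minus CTX *Nefl* 1370058_at and *Nefh* changed sign after quantile normalization (-0.18 and -0.22) and with no centring (-0.082 and -0.13). The cause was not tested. Leaving out 1 array or replicate number as labelled changed the sign of *Nefl* 1370058_at (-1.90 to 0.41), *Nefl* 1370059_at (-1.38 to 0.22) and *Nefh* (-1.06 to 0.57) in VUL minus RES, of *Nefl* 1370058_at (-1.67 to 0.92) and 1370059_at (-1.75 to 0.46) in CA1 minus CA3, of *Nefl* 1370059_at (-1.50 to 0.32) and *Nefh* (-1.70 to 0.49) in CbG minus CTX, of *Nefl* 1370058_at (-0.64 to 1.95) and *Nefh* (-0.52 to 1.39) in CA3 minus CTX, and of *Nefl* 1370058_at (-0.16 to 3.67), *Nefh* (-0.36 to 2.50), *Stmn1* (-1.56 to 0.54) and *Stmn2* 1370042_at (-1 to 0.18) in CA3 minus CbG. Over 10 arrays no called difference changed sign, and 67 of 415 alternative values of called differences, other than those that left out an array or replicate number, lost the call, 31 of them with no filter.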
